A study of Mus musculus with 4 samples.

Results

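The expression of 10 genes widely read as targets of Yap was followed in embryonic mouse hearts after conditional knockout of Salvador (Sav1): Ctgf (now Ccn2), Cyr61 (now Ccn1), Ankrd1, Axl, Nuak2, Tgfb1i1, Jub (now Ajuba), Crim1, Thbs1 and Ptpn14. They were chosen by name, as probes whose only gene symbol in the platform's table was one of the 10, which gave 14 of the 29922 probes and 10 of the 16675 genes tested. A gene with more than 1 probe is represented by its brightest one, and its other probe is given beside it. The samples were whole hearts of embryonic day 9.5 from C57bl/6 x129 hybrid mice, pooled into 2 Salv CKO pools, which carry that knockout, and 2 control pools labelled wild-type. Each pool went onto 1 one-colour array as Cy5-labelled amplified RNA. The Cre driver, whether the controls carried a floxed allele or Cre, and the number of hearts per pool are given in none of the sources read for this work. The pools are described as biological replicates.

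In the Hippo pathway the Mst kinases, held by the scaffold Salvador, activate the Lats kinases, which phosphorylate the coactivators Yap and Taz and keep them out of the nucleus. Unphosphorylated Yap enters the nucleus, binds Tead transcription factors and switches on genes of matrix, adhesion and growth, so transcripts such as Ctgf, Cyr61 and Ankrd1 serve as readouts of the pathway in many cell types. In the embryonic heart Yap promotes the division of heart muscle cells. Tead factors recognise a short element that reads GGAATG on one strand and CATTCC on the other.

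That element was searched for, on both strands, in the 250 bases before each gene's start in the RefSeq promoter table (GRCm38.p6). The table held 6 of the 10 genes under their current symbols, and each of these 6 carried at least 1 match, 8 in all. The same 6 letters occurred in 12.6% of all 32851 promoters of that length in the table. They occurred in 1 of 10 promoters of the other genes of the Yap and Taz target signature described further on, and in 2 of 10 of the other described targets. Among the tested genes with a promoter entry, the share was 13.7% for genes higher in Salv CKO, 14.9% for genes lower in Salv CKO and 13.1% for the rest. A match describes the sequence and does not show a bound site, and genes known as Yap targets were in part found through Tead binding. The whole window is shown for Cyr61 and Ankrd1, the readouts in widest use among the 6, and the bases around each match for the other 4 genes, all 5′ to 3′ on the strand of the gene, with the match in capitals.
Cyr61 (chr3:145649986-145650235, minus strand): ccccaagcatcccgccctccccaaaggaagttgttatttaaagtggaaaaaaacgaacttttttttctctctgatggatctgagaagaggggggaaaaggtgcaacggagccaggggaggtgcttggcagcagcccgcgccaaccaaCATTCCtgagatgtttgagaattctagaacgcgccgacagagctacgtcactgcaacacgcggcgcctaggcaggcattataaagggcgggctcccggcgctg
Ankrd1 (chr19:36119845-36120094, minus strand): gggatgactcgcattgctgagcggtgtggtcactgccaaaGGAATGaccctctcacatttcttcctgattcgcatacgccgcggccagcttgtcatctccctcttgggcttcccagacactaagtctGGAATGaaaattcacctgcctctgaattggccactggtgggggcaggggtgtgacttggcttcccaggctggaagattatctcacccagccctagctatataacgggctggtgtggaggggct
Axl (chr7:25788941-25788983, minus strand): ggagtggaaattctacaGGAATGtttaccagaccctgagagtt
Jub (chr14:54577822-54577867, minus strand): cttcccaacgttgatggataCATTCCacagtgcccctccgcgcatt
Jub (chr14:54577800-54577845, minus strand): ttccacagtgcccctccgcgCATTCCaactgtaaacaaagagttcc
Crim1 (chr17:78200149-78200194, plus strand): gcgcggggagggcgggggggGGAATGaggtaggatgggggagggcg
Ptpn14 (chr1:189728102-189728147, plus strand): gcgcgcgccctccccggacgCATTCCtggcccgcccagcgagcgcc
The match began 103 bases before the start in Cyr61, 210 and 123 bases before it in Ankrd1, and 79 bases before it in Crim1. Ctgf, Nuak2, Tgfb1i1 and Thbs1 had no entry.

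All intensities below were quantile normalised between the 4 arrays, a difference is the log2 value in Salv CKO less that in control, with limma's standard error (SE) and n = 2 pools a group, and a gene was called at a Benjamini-Hochberg adjusted p under 0.05 over all 16675 genes. A probe counted as above background on an array at an intensity over 16, or log2 4. The arrays had deposited median intensities of 71.1 and 76.1 in Salv CKO and of 77.5 and 101 in control, and Pearson's r over all probes was 0.947 between the Salv CKO pools, 0.946 between the controls and 0.937 to 0.942 across the groups. Sav1 itself had intensities of 582 and 562 in Salv CKO, against 755 and 629.9 in control. Its difference of -0.27 ± 0.13 was not called (limma adjusted p = 0.266). The sources do not place its probe relative to the deleted part, so Sav1 does not check the labels.

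The 10 targets did not move one way. Nuak2, a kinase of the AMPK-related family, rose 1.84-fold, whereas Tgfb1i1 (Hic-5), a LIM protein of focal adhesions, fell to 0.473 times its control level and Ctgf, a secreted matricellular protein, to 0.755 times. Cyr61, Ankrd1, Axl, Thbs1, Ptpn14, Jub and Crim1 were not called. With 1 gene called higher and 2 lower, the counts stand beside 4.92% of all genes called higher and 5.70% called lower. Over all genes 46.3% of calls were thus higher, against 22.8% when arrays were centred on their medians and 6.88% when the deposited values were left unscaled. Of the genes above background on all 4 arrays, among which are 8 of the 10 targets, 6.45% were called higher and 7.58% lower. The pools of the 2 groups did not overlap for 7 of the 10 targets, 5 higher and 2 lower in Salv CKO, against 54.2% of all genes (25.2% higher and 29.0% lower). The median difference of the 10 was 0.23, against -0.04 over all genes. It was 0.09 with arrays centred on their medians (-0.14 over all genes) and -0.18 as deposited (-0.41 over all genes). Each of these medians counts Jub and Crim1, which lay near or below background. In pooled whole hearts, fewer cells of a type and less RNA per cell cannot be told apart.

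**Figure D1:**
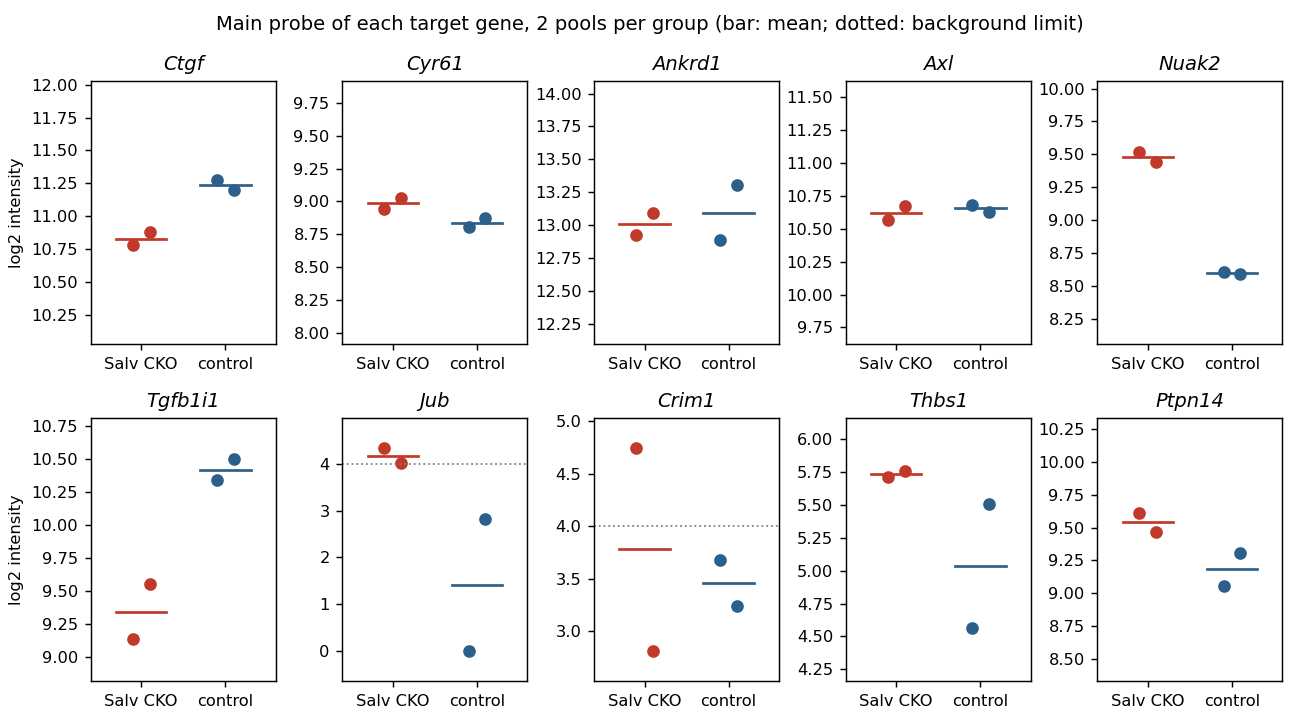
Log2 intensity of the main probe of each of the 10 target genes (vertical axis, scaled separately for each gene), with 1 point per pool and a bar at the mean of the 2 pools; Salv CKO stands left of control and the dotted line marks the background limit of log2 4. Both Salv CKO pools lie above both controls for Nuak2 and below them for Tgfb1i1 and Ctgf, while the groups overlap for Ankrd1, Axl and Crim1 and Jub lies at the background limit.

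Among the secreted matricellular targets, Ctgf (probe mMC000881) had intensities of 1757 and 1888 in Salv CKO, against 2479.8 and 2349 in control. The groups did not overlap, and the pools within a group differed by 0.10 (Salv CKO) and 0.08 (control) on the log2 scale. Ctgf averaged log2 10.83 ± 0.07 in Salv CKO and 11.24 ± 0.06 in control (SD, n = 2 each), a difference of -0.41 ± 0.08 (limma adjusted p = 0.0453). Of all genes tested, 24.3% had a lower difference than Ctgf. In the fit over all 29922 probes, in which 6.30% of probes were called, its adjusted p was 0.0607.

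Cyr61, the closest relative of Ctgf in the list and like it a secreted protein of the CCN family, had intensities of 493 and 521 in Salv CKO, against 448 and 468 in control. Both Salv CKO pools lay above both controls, by little: the difference was 0.15 ± 0.11, with a 95% interval of -0.14 to 0.43 (limma adjusted p = 0.473). A second Cyr61 probe (mMC020356) was below background on all 4 arrays, at -2.34 and 5.10 in Salv CKO and 13.8 and 4.39 in control, and gives no direction. Thbs1, thrombospondin, an adhesive matrix glycoprotein that can activate latent Tgf-beta, had 52.3 and 54.2 in Salv CKO, against 23.6 and 45.4 in control. Both Salv CKO pools lay above both controls. The control pools of Thbs1 differed by 0.94 on the log2 scale, more than the difference of 0.70 ± 0.44 between the groups (limma adjusted p = 0.396). Its other probe (mMR026256) had 30.6 and 19.3 in Salv CKO and 11.1 and 28.2 in control, where the groups overlapped (0.46 ± 0.67).

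Of the membrane proteins, Axl, a receptor tyrosine kinase for the ligand Gas6, had intensities of 1513 and 1629 in Salv CKO, against 1643 and 1586 in control. The groups overlapped, and the difference of -0.04 ± 0.08 had a 95% interval of -0.26 to 0.18 (limma adjusted p = 0.809). Axl thus lay near the middle of all genes, 49.7% of which had a lower difference. Crim1, a transmembrane protein with cysteine-rich repeats that binds bone morphogenetic proteins, was above background on 1 array only, with 26.8 and 7.03 in Salv CKO and 12.8 and 9.43 in control. Its difference of 0.32 ± 0.82 (limma adjusted p = 0.848) therefore has no reading in either direction.

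Nuak2 (mMC014928) had intensities of 734 and 697 in Salv CKO, against 389 and 386 in control. The spread within the groups, 0.08 in Salv CKO and 0.01 in control on the log2 scale, was small beside the gap between them. Its mean was log2 9.48 ± 0.05 in Salv CKO and 8.60 ± 0.01 in control (SD, n = 2 each), a difference of 0.88 ± 0.10 with a 95% interval of 0.61 to 1.15 (limma adjusted p = 0.0144). Of all genes, 9.78% had a higher difference. Over all probes Nuak2 was called as well (limma adjusted p = 0.0192).

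Tgfb1i1 was measured by a pair of probes that moved alike. The main probe (mMR029458) had 561 and 749.7 in Salv CKO, against 1299 and 1447 in control, a difference of -1.08 ± 0.17 (limma adjusted p = 0.0241, and 0.0354 over all probes). The other probe (mMC022065) had 358 and 556 in Salv CKO, against 726 and 1008 in control. On both probes each Salv CKO pool lay below each control, and on both Salv CKO pool 1 was the lower pool. The second probe gave -0.94 ± 0.27 and was not called over all probes (limma adjusted p = 0.135), with a wider spread within the groups, 0.64 in Salv CKO and 0.47 in control on the log2 scale. Only 6.45% of all genes had a lower difference than the main probe.

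Ankrd1, a nuclear and sarcomeric ankyrin repeat protein of heart muscle, had 7786 and 8751 in Salv CKO, against 7559 and 10127 in control. The controls enclosed both Salv CKO pools, and the difference was -0.08 ± 0.16 with a 95% interval of -0.49 to 0.32 (limma adjusted p = 0.784). Jub, a LIM protein that binds and inhibits Lats kinases, had intensities of 20.3 and 16.2 in Salv CKO, just over the background limit, and of -4.04 and 7.03 in control, both below it, so the groups did not overlap. The mean of the Salv CKO pools was 1.13 times the limit of 16, and limma did not call Jub (adjusted p = 0.200). As deposited, Jub read 17.5 and 15.4 in Salv CKO, on arrays with a noise SD of 4.40 and 4.36 from values below 0. The excess over the limit is thus within noise and sets no minimum fold. With a floor of 16 the difference was 0.18 ± 0.14 (limma adjusted p = 0.585). The fitted difference of 2.77 ± 1.11 rests on control values at or near the floor and is no estimate of its size.

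Ptpn14, a phosphatase that binds Yap and holds it in the cytoplasm, was the one target with probes above background that pointed in opposite directions. The main probe (mMC024258) had 782 and 708 in Salv CKO, against 533 and 633 in control, a difference of 0.36 ± 0.13 (limma adjusted p = 0.168). The other (mMC007460) had 199 and 211 in Salv CKO, against 347 and 265 in control, a difference of -0.56 ± 0.18 (limma adjusted p = 0.165 over all probes). All 4 arrays were above background on both probes and the groups did not overlap on either, so the direction for Ptpn14 depends on the probe. Which transcripts each probe detects was not tested.

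**Figure D2:**
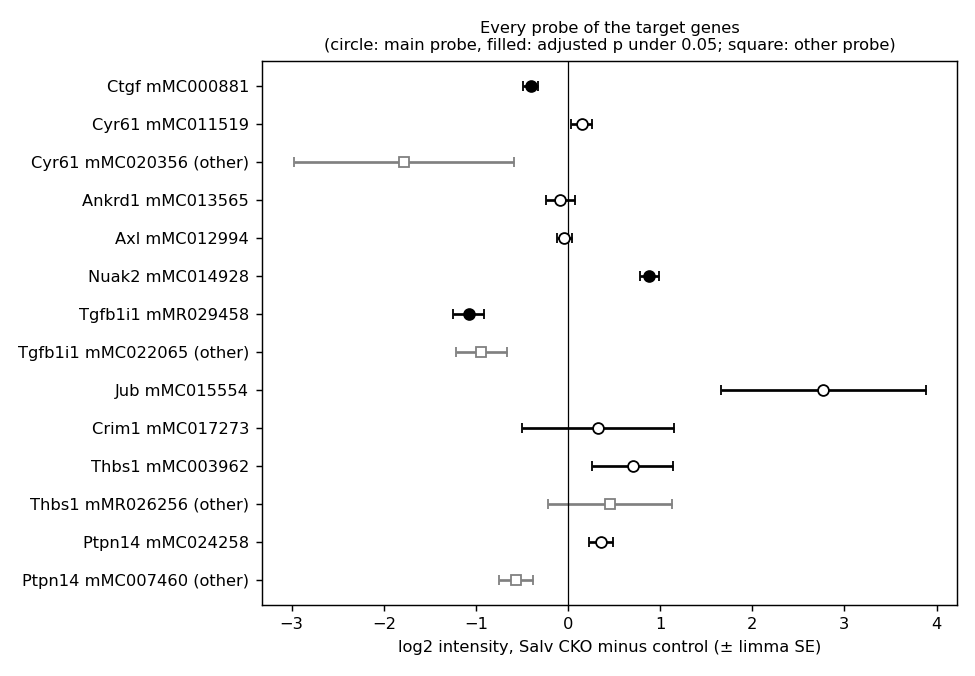
Difference in log2 intensity, Salv CKO minus control, with limma's SE, for each of the 14 probes of the target genes; circles are main probes, filled where called, and squares are other probes. The probes of Tgfb1i1 lie together at -1.08 and -0.94, those of Ptpn14 on opposite sides of 0 at 0.36 and -0.56, and the widest errors belong to the dim probes of Jub, Crim1 and Cyr61.

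Targets were also set against each other within each array, since a factor that scales a whole array cancels in such a ratio. These pairs were picked after the values had been seen and are descriptions. On the deposited intensities, the log2 ratio of Nuak2 to Ctgf was -1.25 and -1.41 in Salv CKO, against -2.74 and -2.61 in control, a shift of 1.35. The ratio of Nuak2 to Tgfb1i1 was 0.39 and -0.10 in Salv CKO, against -1.79 and -1.91 in control, a shift of 1.99. The CCN pair, Cyr61 to Ctgf, stood at -1.80 and -1.81 in Salv CKO, against -2.54 and -2.34 in control, a shift of 0.63. Ctgf to Tgfb1i1 shifted by 0.64, so a shift of this size was not particular to the CCN pair. Nuak2 to Cyr61, Axl and Ankrd1 shifted by 0.72, 0.97 and 1.02.

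**Figure D3:**
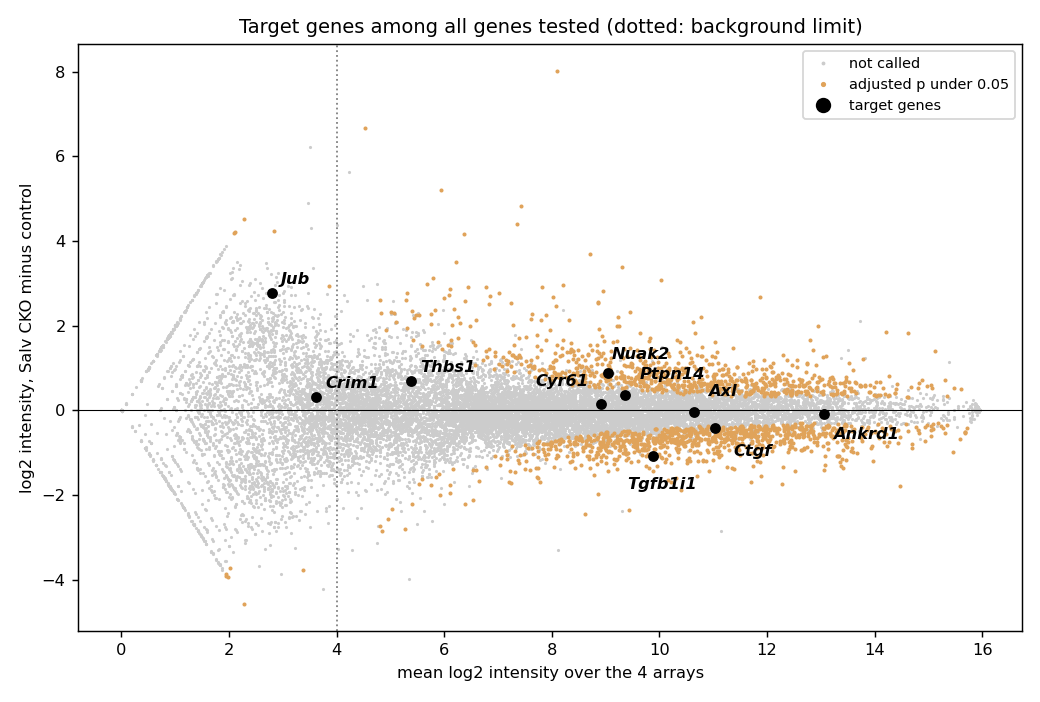
Difference in log2 intensity, Salv CKO minus control, against the mean log2 intensity over the 4 arrays for all 16675 genes, with called genes in orange and the 10 targets in black. Nuak2 lies above the band of genes not called, Tgfb1i1 below it and Ctgf at its lower edge, Cyr61, Axl and Ankrd1 lie inside it, and Jub and Crim1 lie left of the background limit.

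The calls and some signs moved with the scaling and with single arrays. Nuak2 remained positive and Tgfb1i1 and Ctgf negative under all 15 alternatives, with Nuak2 at 0.45 to 0.93, Tgfb1i1 at -1.55 to -0.87 and Ctgf at -0.90 to -0.36. They were called in 9, 7 and 7 of these. With any 1 array left out, limma called no gene at all, the 10 targets included, and Nuak2 was at 0.85 to 0.93. Such a fit leaves 1 pool in 1 of the groups. With the values as deposited, where the median over all genes was -0.41, Nuak2 was at 0.45 (adjusted p = 0.120), Cyr61 at -0.27 (adjusted p = 0.362) and Axl was called at -0.53 (adjusted p = 0.0415).

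**Figure D4:**
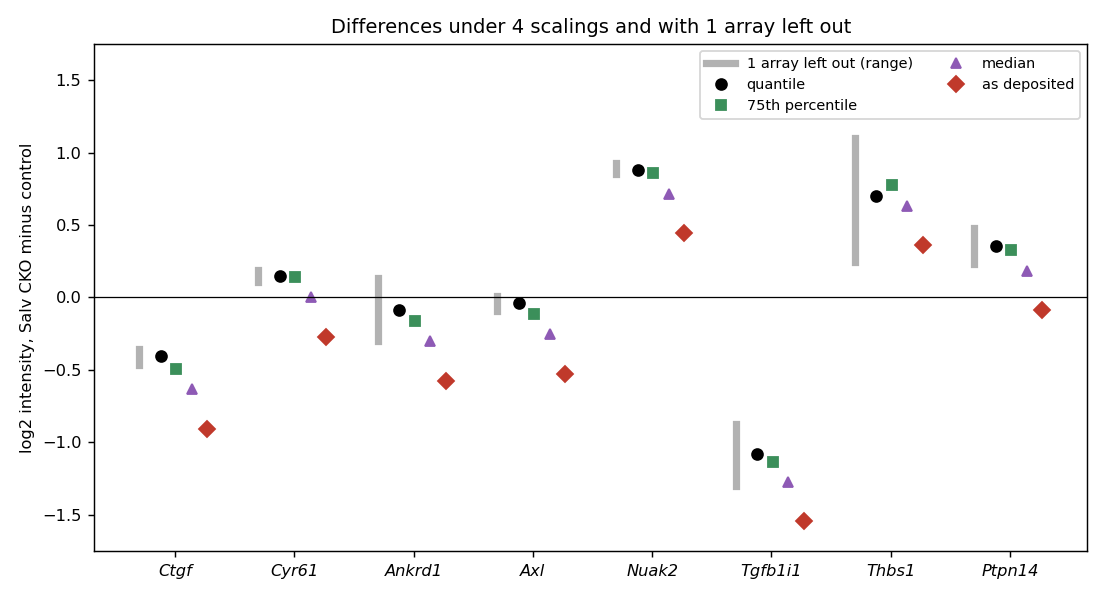
Difference in log2 intensity, Salv CKO minus control, of the 8 targets above background on all 4 arrays, under quantile normalisation, division by the 75th percentile, centring on the median and the values as deposited, with the range over the 4 fits that leave out 1 array as a grey bar. Nuak2 stays above 0 and Tgfb1i1 and Ctgf stay below 0 under each, whereas Cyr61 lies at 0 when centred on the median and below it as deposited, Ptpn14 lies below 0 as deposited, and the grey bars of Ankrd1 and Axl cross 0.

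Other genes ascribed to Yap were described from lists chosen with earlier results of these data known. Of 15 other genes of a Yap and Taz target signature that also holds Ctgf, Cyr61, Ankrd1, Axl, Crim1, Ptpn14 and Nuak2, 2 rose and 0 fell after quantile normalisation, 2 and 1 with arrays divided by their 75th percentiles, 1 and 1 centred on their medians and 1 and 2 as deposited. Foxf2, a forkhead factor of foregut mesenchyme, rose by 1.36 ± 0.15 (limma adjusted p = 0.0132). Fjx1, a homologue of the Drosophila kinase four-jointed, rose by 0.49 ± 0.09 (limma adjusted p = 0.0366), though it was at 0.01 with the values as deposited (adjusted p = 0.976). The median of these 15 was 0.09, and -0.23 with the values as deposited, against medians of -0.04 and -0.41 over all genes under the same scalings. Of 15 further described targets, 1 rose and 0 fell: Gli2, a Hedgehog effector, at 1.02 ± 0.09 (limma adjusted p = 0.0102), with -0.05 ± 0.14 on its other probe and 0.50 with the values as deposited (adjusted p = 0.0780). Their median was 0.07, and -0.04 with each array centred on its median, against -0.04 and -0.14 over all genes under the same scalings.

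The factors that act on these targets were at hand in the same fit. Of 9 genes for Yap, Taz, Tead and Vgll factors, 0 rose and 1 fell, Vgll4, a cofactor that competes with Yap for Tead, at -0.43 ± 0.09 (limma adjusted p = 0.0465). The median of the 9 was -0.11, and below 0 under each scaling. Tead1 and Tead4 were below background on all 4 arrays.

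The closest relatives of the 10 targets gave 1 gene of 22 that rose and 3 that fell. Trip6 and Zyx, zyxin family LIM proteins of adhesion sites like Jub, went apart: Trip6 had log2 9.98 and 10.03 in Salv CKO, against 9.07 and 9.08 in control, and rose by 0.93 ± 0.09 (limma adjusted p = 0.0110), with 0.47 as deposited (adjusted p = 0.0896). Zyx had log2 12.78 and 12.75 in Salv CKO, against 13.34 and 13.40 in control, and fell by 0.60 on the log2 scale (limma adjusted p = 0.0119). Lpp, another zyxin relative, fell by 0.57 on the log2 scale (limma adjusted p = 0.0251), with -0.14 ± 0.17 on its other probe. Ptpn21, the phosphatase most like Ptpn14, had log2 7.34 and 7.44 in Salv CKO, against 8.08 and 8.17 in control, and fell by 0.73 on the log2 scale (limma adjusted p = 0.04997), a call lost when arrays were divided by their 75th percentiles (-0.69, adjusted p = 0.0560). None of the other 3 measured CCN genes was called with limma; Wisp1 was at -0.54 (limma adjusted p = 0.106) and Wisp2 at -1.14 (limma adjusted p = 0.158), picked after their values were seen. The list's median was -0.12, and below 0 under each scaling.

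Several targets also answer to Srf and Tgf-beta, which act on smooth muscle and matrix genes. Of 18 smooth muscle and Srf target genes, 0 rose and 5 fell after quantile normalisation. The probes of Acta2, Myl9, Csrp1 and Csrp2 were saturated, which here means 65000 or above on 1 array or more, before quantile normalisation. For this limit the deposited values of each array were first divided by the array's smallest nonzero absolute value, 0.891 to 1.03. The deposited values thus appear to carry a factor per array, which the sources do not describe. With arrays divided by their 75th percentiles, 6 genes fell, and the 4 called higher were these saturated ones, which give no measured difference. The early genes Fos and Junb fell by 0.90 and 0.82 on the log2 scale (limma adjusted p = 0.0155 and 0.0260), and calponin 2 (Cnn2) and the tropomyosin Tpm2 each fell by 0.45 (limma adjusted p = 0.0217 and 0.0364). The list's median was -0.42, with the 4 saturated genes counted, and lay below that of all genes under each scaling. The part of Srf or Tgf-beta in the values of the targets was not tested. Of 13 Tgf-beta response genes 2 rose and 1 fell after quantile normalisation, with a median of -0.42, whereas 1 rose and 2 fell with arrays divided by their 75th percentiles, 1 and 5 when arrays were centred on their medians and 1 and 6 with the values as deposited. Of these, Postn, a matricellular protein of cushion and fibroblast lineages, rose by 2.87 ± 0.36 (limma adjusted p = 0.0162), Id1 by 0.37 ± 0.06 (limma adjusted p = 0.0276), and the growth factor Bmp7 fell by 0.69 on the log2 scale (limma adjusted p = 0.0131). Id1 was at -0.09 with the values as deposited and was not called when arrays were centred on their medians (0.18, adjusted p = 0.482).

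Markers of the cell types in these hearts moved in the same pools, and their part in the values of the targets was not tested. All 14 measured markers of heart muscle, the labelled tissue, were above background on all arrays. After quantile normalisation 0 rose and 6 fell. Those that fell include Myh6, a saturated probe that averaged log2 15.25 in Salv CKO and 15.92 in control. Saturation leaves the size of its fall unmeasured. Of the 14 markers 6 were saturated, Myh6, Actn2, Actc1, Myl2, Myl3 and Myl4. The summed intensity is therefore that of the other 8, 131439 and 132456 in Salv CKO, against 168445 and 198515 in control. Ankrd1, which heart muscle expresses, stood at -0.08 beside this list's median of -0.56. That median counts the 6 saturated markers, so it does not measure the size of the list's change. Of 11 endothelial and endocardial markers 0 rose and 5 fell, with sums of 19217 and 18496 in Salv CKO and 30656 and 29109.9 in control. Of 8 red cell markers 0 rose and 3 fell, with sums of 52957 and 50567 in Salv CKO and 74933 and 77852 in control without Hba-x, which was saturated.

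Of the neural, neural crest and pharyngeal, somite, and endoderm and yolk sac markers, some were called higher and 1, Nes, lower after quantile normalisation. Of 14 neural markers 5 rose and 1 fell (sums of 17181 and 17211 in Salv CKO, and 9789 and 11327 in control), and none was below background on all arrays. Of 13 neural crest and pharyngeal markers 5 rose and 0 fell (61680.2 and 61244 in Salv CKO, 23301 and 23271 in control), with Foxd3 and Dlx5 below background on all arrays. Crabp1 carried most of that sum, and without it the sums were 14347 and 13909.8 in Salv CKO and 9784 and 10009 in control. Of 11 somite markers 3 rose and 0 fell (3979 and 4009.9 in Salv CKO, 773 and 812 in control), with Myf5 below background throughout, and without Tcf15 the sums were 909 and 1011 in Salv CKO and 385 and 479.9 in control. Of 12 endoderm and yolk sac markers 4 rose and 0 fell (10949.6 and 11157 in Salv CKO, 5807 and 5678 in control). Of 9 epicardial and proepicardial markers, which belong to the heart and its surroundings, 3 rose and 1 fell (10659 and 9150.2 in Salv CKO, 11151 and 10684 in control), with Wt1 and Tcf21 below background and a median of -0.22. Without Krt19 their sums were 3677 and 3703 in Salv CKO and 2923 and 2643 in control, higher in both Salv CKO pools. Of these 9 markers 2 rose and 2 fell when arrays were centred on their medians, and likewise as deposited. Upk3b was not called under either. The sums without a saturated or a leading gene were chosen after the values had been seen. The median of each of these marker lists kept its sign under each of the 4 scalings. Which of these cells hold Nuak2, Tgfb1i1 or Ctgf cannot be read from pooled hearts.

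**Figure D5:**
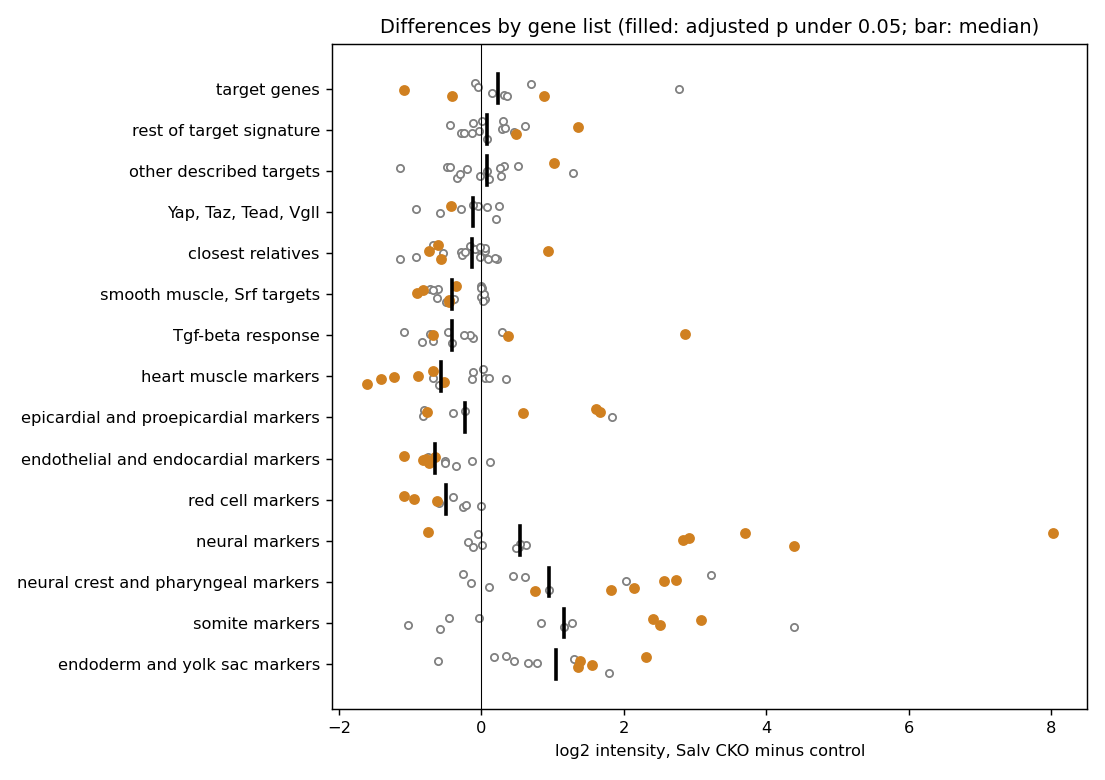
Difference in log2 intensity, Salv CKO minus control, of each measured gene by list, with called genes filled and the median of each list as a bar. The 10 targets spread to both sides of 0 around a median of 0.23, which counts the dim Jub and Crim1. Below it lie the medians of the heart muscle, endothelial and red cell markers, at -0.56, -0.65 and -0.50. Above it lie those of the neural, neural crest, somite and endoderm markers, at 0.54, 0.95, 1.16 and 1.04. The medians of the smooth muscle, heart muscle and red cell lists count saturated genes.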

How the data were processed

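RNA of 2 Salv CKO and 2 control pools, grouped by their titles, was hybridised to 1 array each. The authors deposited linear probe intensities, per the labels from Cy5-labelled amplified RNA; scanner, software and scaling are not given in the sources. Between 3.37 and 5.99% of values per array lay below 0, so background had been subtracted, and the 75th percentiles of 361 to 536 show that arrays had not been brought to 1 distribution. Quantile normalisation between arrays (limma 3.58.1, R 4.3.3) was followed by a floor of 1 and log2; earlier work on these data had settled that floor after seeing them. The platform's table of 2013 names 1 gene for 21020 probes and none for 8902. Genes were tested on their brightest probe with lmFit and eBayes (two-sided, with a trend on intensity and 2.92 prior degrees of freedom), and other probes in the same fit over all probes. The procedure was also run on simulated data, drawn with independent normal noise of the fitted variances. Such data meet the model by construction and cannot show how calls respond to array scaling or to a lost array. With 2 pools a group, an exact permutation test cannot go below p = 0.333, so precision is limited by the number of arrays.

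The members, lists and tests were chosen with earlier results of these data known. Besides all members, up to 4 called genes a list, above background on all arrays and largest in size, are named, or all called relatives; genes outside this rule are marked. Alternatives changed the scaling, floor, filter, probe choice, trend, replicate block and arrays.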

Additional observations from a re-analysis of the deposited data

How the results depend on the processing

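Of all genes, 821 were called higher and 951 lower in Salv CKO with limma. These counts were 543 and 1835 with arrays centred on the median, 229 and 3101 as deposited, 253 and 228 with a floor of 16, 257 and 234 with a floor of 64, 1239 and 1437 with genes over 16 on all 4 arrays, and 0 and 0 without the intensity trend (3578 at an unadjusted p under 0.05). With 1 array left out each was 0 (3172 to 3438 at an unadjusted p under 0.05). The share of calls that were higher was 46.3%, against 22.8% centred on the median and 6.88% as deposited.

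Of the targets, 1 was called higher and 2 lower. The first count was 0 as deposited, and the second 0 with a floor of 16 or 64 or with the mean of a gene's probes; both were 0 without the trend or without any 1 array. Ctgf then had an adjusted p of 0.0532 for the mean of probes, though it has 1 probe only.

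Of the genes of the other target, factor, relative, Srf and Tgf-beta lists, which leave out the marker lists, 6 were called higher and 10 lower: 21 lower centred on the median, 2 and 28 as deposited, 2 and 3 with a floor of 16 or 64, 17 lower with genes over 16 on at least 2 arrays, 18 lower on all 4, 6 lower with the mean of probes, and 0 without the trend or without any 1 array. Of all probes 1886 were called: 2964 centred on the median, 2890 as deposited, 426 and 398 with floors of 16 and 64, 3236 and 3355 with the filters on 2 and 4 arrays, and 0 without the trend or any 1 array.

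Uncalled targets changed sign. Cyr61 was at -0.00015 centred on the median, -0.27 as deposited and -0.82 averaged over its probes, 1 of them below background. Ptpn14 was at -0.084 as deposited and -0.10 as the mean of its probes. With 1 array left out, Ankrd1 ranged from -0.30 (without control pool 1) to 0.13 (without control pool 2), Axl from -0.091 (without Salv CKO pool 2) to 0.013 (without Salv CKO pool 1) and Crim1 from -0.67 (without Salv CKO pool 1) to 1.29 (without Salv CKO pool 2). For these signs the cause was not tested beyond the construction of each alternative.

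Same-numbered pools deviated together with r = 0.170 over 12402 genes; the labels do not tie them. With the replicate number as a block 1016 genes were higher and 1195 lower, 1 target was called higher and 2 lower, 6 and 12 genes of those other lists were called, and 2494 probes. The block changed no call of a target. Dim probes limit Jub, Crim1 and Thbs1.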
